A study of Homo sapiens with 4 samples.

Results

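Coagulation at the surface of a cell starts when tissue factor, encoded by F3, meets coagulation factor VII, and dissolving of fibrin starts when plasminogen is cut by its activators. The 9 genes examined here belong to these linked systems: the initiator F3, its inhibitors TFPI and TFPI2, the thrombin receptors THBD and F2R, the plasminogen activators PLAT and PLAU, the urokinase receptor PLAUR, and the protease inhibitor SERPINE2. They are 9 of the 34080 genes to which deposited transcripts could be assigned. The list was drawn up with the Doxy(+) over Doxy(-) fold changes of these same libraries in view, so the genes were in part chosen by that difference. Their values for it are therefore given as a description, not as a test.

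Libraries of polyadenylated RNA came from HK-2, an immortalised human renal proximal tubule line, that carried HA-tagged PRCC-TFE3, a fusion of PRCC with the transcription factor TFE3, under the Tet-On 3G system. Doxy(+) cells received 0.2 microg/ml doxycycline during 24 h and Doxy(-) cells received none, with 2 libraries per group. All 4 cultures carried the transgene and were under selection with blasticidin S and puromycin, so an effect of doxycycline itself and one of PRCC-TFE3 cannot be told apart. The sources do not say whether the cells were 1 clone or whether the numbers 1 and 2 mark separate lines or cultures, and p-values measure the spread between these libraries, which may be technical.

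Thrombin, the product of the cascade, is held in check by TFPI, which blocks the complex of tissue factor and factor VIIa, and by thrombomodulin (THBD), which turns thrombin towards activation of protein C. On cells, thrombin also signals through the protease-activated receptor PAR1 (F2R). Urokinase (PLAU), bound to its receptor PLAUR, and tissue plasminogen activator (PLAT) make plasmin, and the serpin protease nexin-1 (SERPINE2) is among their inhibitors. In the kidney, urokinase is made by tubule cells, and tissue factor by epithelial cells of the glomerulus.

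TFE3 belongs to a family of factors that bind the E-box CACGTG, and the F3 and PLAUR genes are known examples of regulation through AP-1 sites. RefSeq promoter windows, from 250 bases before to 50 bases after a start site, were at hand for 6 of the 9 genes (8 windows, GRCh38.p14). The 4 windows that hold an AP-1 motif (TGANTCA) or an E-box are given from 5′ to 3′ on the gene's strand, with AP-1, E-box and E-box variant (CATGTG, read on both strands) matches in capitals.
F3, chr1:94541710-94542009, minus strand: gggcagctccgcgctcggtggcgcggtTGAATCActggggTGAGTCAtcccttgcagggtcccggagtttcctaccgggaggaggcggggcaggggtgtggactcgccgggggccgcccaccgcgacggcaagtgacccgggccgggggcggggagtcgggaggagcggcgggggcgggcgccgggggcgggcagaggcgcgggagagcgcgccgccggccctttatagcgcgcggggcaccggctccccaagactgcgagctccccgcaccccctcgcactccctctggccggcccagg
TFPI2, chr7:93890704-93891003, minus strand: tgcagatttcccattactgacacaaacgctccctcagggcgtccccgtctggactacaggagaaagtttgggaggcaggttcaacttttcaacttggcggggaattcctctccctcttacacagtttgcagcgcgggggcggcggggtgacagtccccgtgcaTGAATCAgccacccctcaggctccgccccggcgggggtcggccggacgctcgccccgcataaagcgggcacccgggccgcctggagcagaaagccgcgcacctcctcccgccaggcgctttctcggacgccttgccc
PLAUR, chr19:43670120-43670419, minus strand: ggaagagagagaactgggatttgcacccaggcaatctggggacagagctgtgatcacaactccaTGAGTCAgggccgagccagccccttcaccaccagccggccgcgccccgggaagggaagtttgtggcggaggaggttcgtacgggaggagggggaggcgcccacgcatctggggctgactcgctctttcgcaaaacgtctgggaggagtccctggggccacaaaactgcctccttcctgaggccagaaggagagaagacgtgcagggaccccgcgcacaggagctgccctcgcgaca
SERPINE2, chr2:224031429-224031728, minus strand: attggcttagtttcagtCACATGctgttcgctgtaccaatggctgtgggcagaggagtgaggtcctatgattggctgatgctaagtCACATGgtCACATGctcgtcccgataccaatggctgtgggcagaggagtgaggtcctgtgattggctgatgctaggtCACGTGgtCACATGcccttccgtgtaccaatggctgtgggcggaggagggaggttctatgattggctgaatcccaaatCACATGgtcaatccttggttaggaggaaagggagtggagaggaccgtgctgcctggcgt

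The F3 window held 2 AP-1 matches, TGAATCA at -223 to -217 and TGAGTCA at -210 to -204, counting the start site as 0. In the TFPI2 window TGAATCA lay at -87 to -81, and in that of PLAUR TGAGTCA lay at -186 to -180. Of all 35116 promoter windows in the table, 7.71% held TGANTCA. The F3 and TFPI2 windows also each held 1 match to the EGR1 motif GCGGGGGCG, against 5.07% of all windows. They held 4 and 2 GC boxes (GGGCGG), which overlap the EGR1 match in part and occur in 45.0% of all windows. GC boxes were also matched at the downstream PLAU start (3) and at the downstream (1) and upstream (2) SERPINE2 starts.

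The E-box CACGTG occurred in 1 of the 8 windows, against 7.26% of all windows, at -87 to -82 from a start of SERPINE2, where it was preceded by T (TCACGTG, 3.71% of all windows). The same window held 5 matches to the E-box variant CATGTG, found in 11.1% of all windows. This is the downstream start, that of transcript ENST00000409840.7, which carried estimated counts of 0, 0, 6.06 and 0 in Doxy(-) 1, Doxy(-) 2, Doxy(+) 1 and Doxy(+) 2. Neither AP-1 nor an E-box was matched in the windows of TFPI, of both PLAU starts and of the other SERPINE2 start. The TFPI window lies at the start of transcript ENST00000233156.9, which was listed at 0 in all 4 libraries. The upstream SERPINE2 window, at 224038591 to 224038890, does not reach the start of the leading SERPINE2 transcript at 224039286, so neither SERPINE2 window covers that start. The TATA box TATAAA, searched on the gene's strand, was matched in 0 of the 8 windows and in 7.33% of all windows. The other motifs were searched on both strands. The matches are letters in a window and no measurement of binding.

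**Figure D1:**
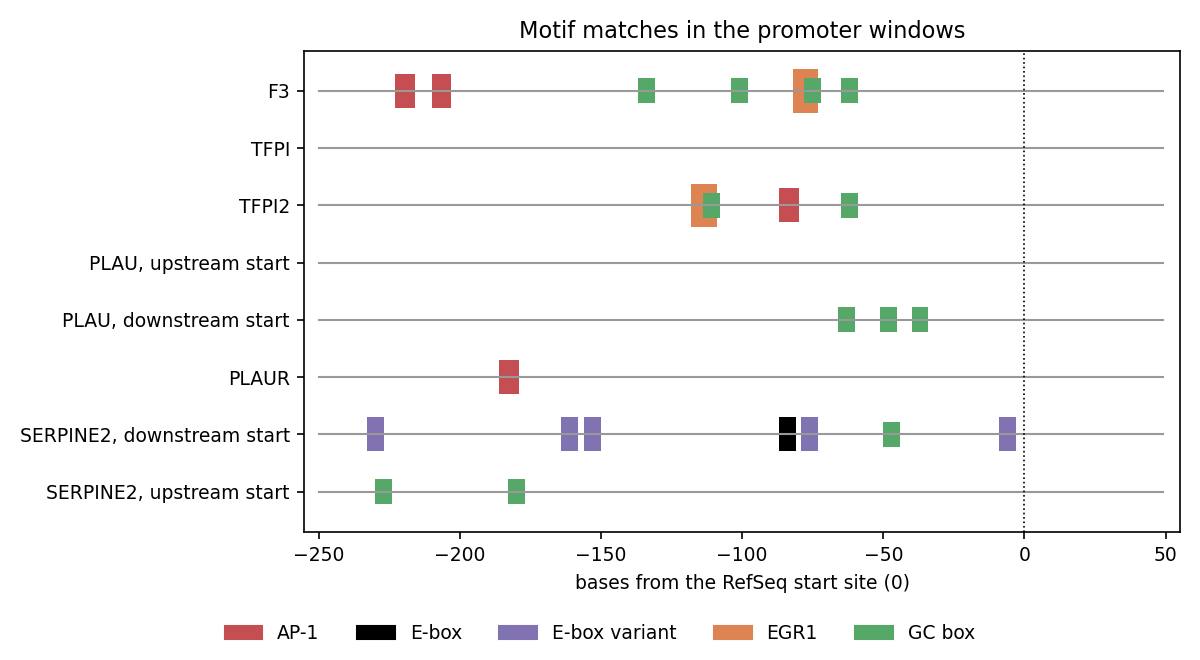
Motif matches (coloured boxes) in the 8 promoter windows, along the distance from the RefSeq start site in bases. AP-1 matches appear in the F3, TFPI2 and PLAUR windows, and the E-box appears only at the downstream start of SERPINE2.

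Gene sums rested on 12654233 to 15012743 reads per library. As a check of the labels, TFE3 levels were 66.9 and 69.0 CPM (counts per 1000000 reads, TMM-scaled) without doxycycline against 367 and 322 CPM with it. Of the 9 proximal tubule markers found (644 to 707 CPM summed), PAX8 and GGT1 were well expressed, while LRP2, AQP1 and ANPEP had between 0 and 3 counts in every library. Several members are best known from endothelium, whose 8 markers summed to 3.11 to 4.37 CPM with CDH5 and KDR at 0 in all 4 libraries. Summed CPM lay at 1.36 to 2.34 for 5 platelet markers, at 1.06 to 2.71 for 5 leukocyte markers and at 186 to 204 for 6 fibroblast markers, of which LUM made up most. The 5 epithelial markers summed to 1389 and 1372 CPM in Doxy(-) and 1109 and 1114 CPM in Doxy(+). Among them CDH1 lay at 0.46 to 0.82 CPM across the 4 libraries. The part of these markers in the results was not tested. In bulk RNA, fewer cells of a type and less RNA per cell cannot be told apart.

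All 9 members passed the low-count filter, and 4 of them (F3, PLAT, TFPI2 and PLAUR) were called lower in Doxy(+) by edgeR's quasi-likelihood fit over all genes at an adjusted p under 0.05, with 0 called higher. In that fit 9.53% of the 13569 genes tested were lower and 9.76% higher. The limit the study used in addition, a log2 fold change over 1 in size, was passed by F3 alone, as by 0.479% of all genes downward. The CPM of the groups did not overlap for 6 of the 9, which with 2 libraries per group was also so for 61.1% of all genes. The median log2 fold change was -0.25 over the members and 0.001 over all genes tested.

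The initiator of coagulation moved further than any other of the 9 genes. F3 (ENSG00000117525.14, chromosome 1, 94529173 to 94541759, minus strand, as all gene positions on hg38 in GENCODE 44) measured 50.1 and 46.7 CPM without doxycycline (Doxy(-)) against 15.3 and 16.8 CPM with it (Doxy(+)). Every Doxy(+) value was far below both Doxy(-) values, and the gap was many times the distance between replicates. The means were 48.4 ± 2.35 and 16.0 ± 1.07 CPM (SD, n = 2 each), a log2 fold change of -1.59 (SE 0.0815, 95% interval -1.79 to -1.39), so that F3 fell by 66.8%. Over the 14 alternative settings its log2 fold change ranged from -1.66 to -1.37, and all 14 kept it below the adjusted p limit.

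Reads of F3 lay mostly on ENST00000334047.12, the transcript of the membrane-bound protein, with 569, 550, 174 and 181 estimated counts in Doxy(-) 1, Doxy(-) 2, Doxy(+) 1 and Doxy(+) 2. This transcript alone separated the groups in the same way as the gene sum. ENST00000370207.4, which skips exon 5 of 6 (94532321 to 94532480, 160 nt, not a multiple of 3) and corresponds to the soluble, alternatively spliced form of tissue factor, was estimated at 0, 41.1, 0 and 15.0 counts. It received reads only in the library numbered 2 of each group, so its share cannot be compared between groups. The share of the membrane-bound form was 88.1% and 80.1% of F3 counts in Doxy(-) and 88.4% and 80.3% in Doxy(+).

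Of the inhibitors, TFPI was not called and TFPI2 was called lower. TFPI (ENSG00000003436.16, chromosome 2, 187464230 to 187565760, minus strand), the main inhibitor of the tissue factor and factor VIIa complex, measured 67.7 and 74.3 CPM without doxycycline against 74.0 and 73.8 CPM with it. The Doxy(+) values lay within the Doxy(-) range. Its log2 fold change was 0.06 (SE 0.0616, 95% interval -0.09 to 0.21), an interval that contains 0 and lies wholly above that of F3. Its leading transcript, ENST00000392365.5, carried between 58.6% and 61.8% of the counts in all 4 libraries, while the other long coding transcript, ENST00000233156.9, was listed at 0.

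TFPI2 (ENSG00000105825.14, chromosome 7, 93885396 to 93890753, minus strand), a related inhibitor that acts mainly on plasmin and trypsin-like proteases and is deposited in the matrix, measured 74.5 and 79.3 CPM without doxycycline against 65.2 and 58.8 CPM with it. The groups did not overlap, and the gap between their nearest libraries was somewhat larger than the distance within either. TFPI2 fell by 19.4% (log2 fold change -0.31, SE 0.0692, 95% interval -0.48 to -0.14). The call was lost in 6 of 14 alternatives, among them DESeq2, length-scaled counts and the fits without Doxy(-) 2 (log2 fold change -0.27) or without Doxy(+) 2 (-0.24).

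Neither of the thrombin receptors was called. THBD (ENSG00000178726.7, chromosome 20, 23045633 to 23049672, minus strand), the single-exon thrombomodulin gene, rested on 31, 42, 17 and 27 counts, that is 2.40 and 2.86 CPM in Doxy(-) and 1.32 and 2.01 CPM in Doxy(+). Both Doxy(+) values were below both Doxy(-) values, yet THBD was not called. Its log2 fold change was -0.66 (SE 0.327, 95% interval -1.45 to 0.14), and this interval contains both 0 and the value of PLAT. With these counts and 2 libraries per group, a difference as large as that of PLAT and none cannot be told apart. F2R (ENSG00000181104.7, chromosome 5, 76716126 to 76735770, plus strand) measured 30.8 and 34.3 CPM without doxycycline against 30.5 and 35.4 CPM with it. Its Doxy(+) values enclosed the Doxy(-) values, with a log2 fold change of 0.02 (SE 0.0986, 95% interval -0.23 to 0.26).

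**Figure D2:**
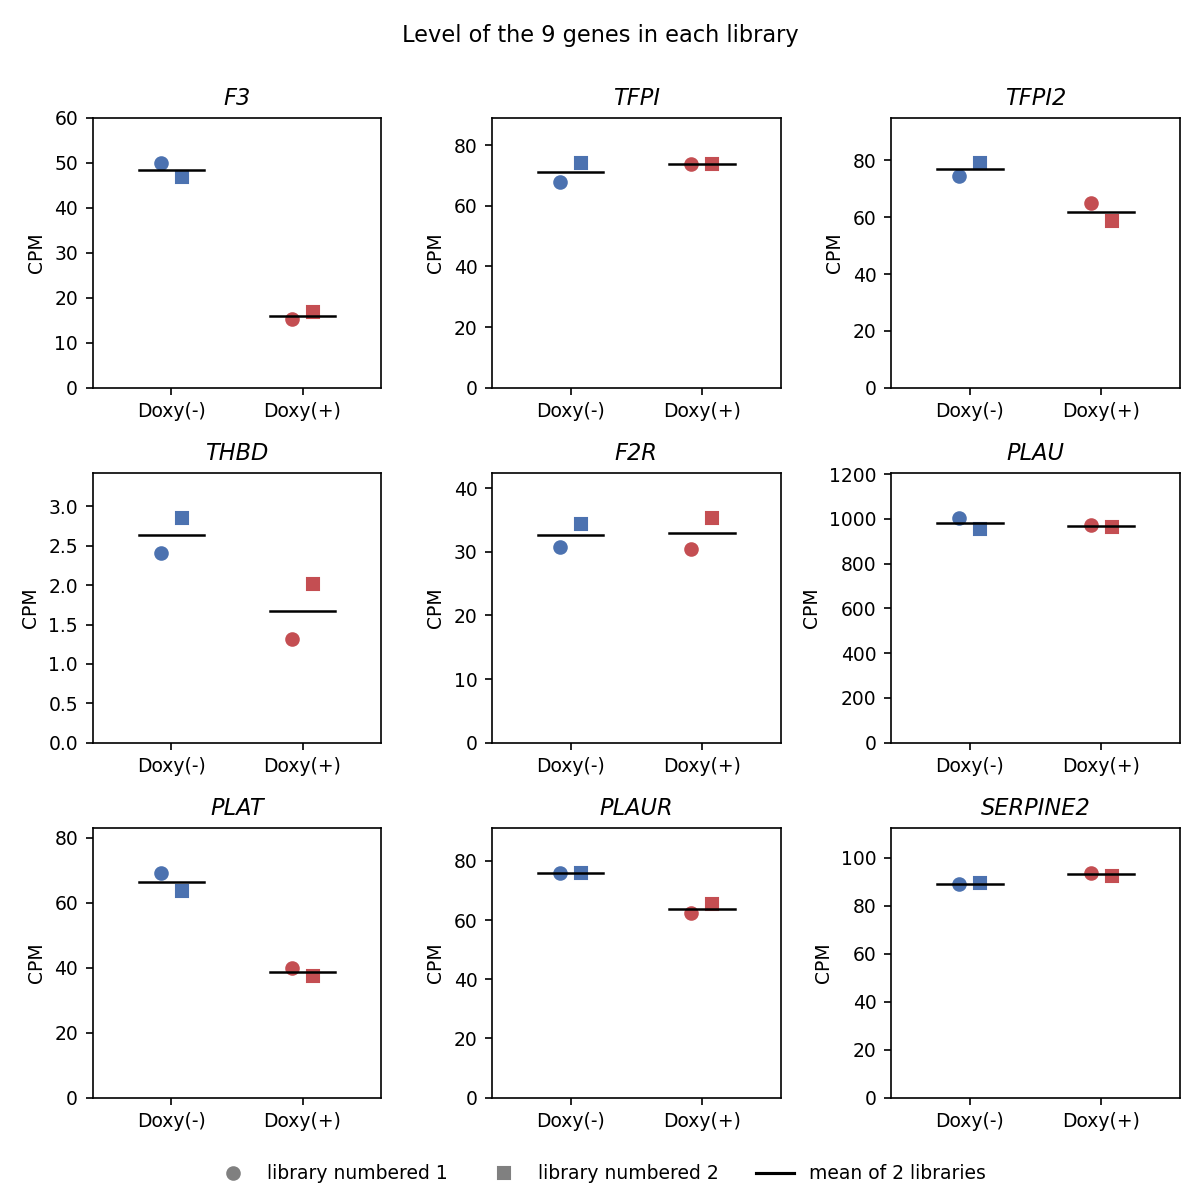
CPM of each of the 9 genes (y axes from 0, scaled per gene) in the 2 Doxy(-) and 2 Doxy(+) libraries, with points for libraries and lines for means. F3 and PLAT show the clearest separation, while TFPI, F2R and PLAU overlap between the groups.

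Of the plasminogen activators, PLAT was called lower and PLAU was not. PLAT (ENSG00000104368.19, chromosome 8, 42174718 to 42207709, minus strand), which encodes tissue plasminogen activator, measured 69.4 and 63.8 CPM without doxycycline against 40.0 and 37.6 CPM with it. The groups were well apart, and PLAT fell by 41.7% (log2 fold change -0.78, SE 0.069, 95% interval -0.95 to -0.61), short of the fold change limit. The study's qPCR primers for the genes it found commonly regulated include PLAT. Those genes were cut at a log2 fold change over 1, which PLAT did not reach in this fit. The reason for this difference was not tested. All 14 alternatives kept the call of PLAT as lower, with log2 fold changes from -0.84 to -0.59. The estimates of its single transcripts were unstable, since ENST00000220809.9 received 0.907, 471, 0.023 and 126 counts in Doxy(-) 1, Doxy(-) 2, Doxy(+) 1 and Doxy(+) 2, so the gene sum is the value to read.

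PLAU (ENSG00000122861.16, chromosome 10, 73909177 to 73917496, plus strand), the urokinase gene, measured 1006 and 954 CPM without doxycycline against 971 and 962 CPM with it. The Doxy(+) values lay between the Doxy(-) values. Its log2 fold change of -0.02 (SE 0.0338) had a 95% interval of -0.10 to 0.06, the narrowest of the 9 genes. Between 96.3% and 96.8% of its counts lay on ENST00000372764.4 in every library. Exons of C10orf55 on the opposite strand overlap PLAU, and whether the counting used the strand is not given in the sources used here.

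PLAUR (ENSG00000011422.12, chromosome 19, 43646095 to 43670547, minus strand), which holds urokinase on the cell surface, measured 75.9 and 76.0 CPM without doxycycline against 62.2 and 65.5 CPM with it. Both groups were tight and apart on this scale, and PLAUR fell by 15.9% (log2 fold change -0.25, SE 0.0531, 95% interval -0.38 to -0.12). The call was lost in 6 of 14 alternatives, among them DESeq2, length-scaled counts, and the fits without Doxy(+) 1 (log2 fold change -0.21) or without Doxy(+) 2 (-0.29). In TPM, which is scaled by transcript length, PLAUR was 93.6 and 91.3 without doxycycline and 75.5 and 91.6 with it, and the groups overlapped.

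SERPINE2 (ENSG00000135919.14, chromosome 2, 223975045 to 224039318, minus strand), protease nexin-1, an inhibitor of thrombin, urokinase and tissue plasminogen activator, measured 89.0 and 89.4 CPM without doxycycline against 93.9 and 92.6 CPM with it. Although the groups did not overlap, the log2 fold change was 0.06 (SE 0.0448, 95% interval -0.05 to 0.17) and was not called. The share of its leading transcript, ENST00000409304.6, moved between 53.5% and 75.4% of counts among the libraries, with the lowest and the highest share both in Doxy(-).

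Levels of different genes were compared per transcript length, as TPM summed over the transcripts of a gene. PLAU led in both groups, with mean TPM of 630 in Doxy(-) and 642 in Doxy(+). In Doxy(-) it was followed by TFPI2 (95.04) and PLAUR (92.4), whose ranges overlapped, then by SERPINE2 (79.1), PLAT (46.1), TFPI (42.2), F3 (41.2), F2R (12.6) and THBD (0.937). In Doxy(+) PLAUR (83.6), SERPINE2 (81.3) and TFPI2 (74.4) overlapped with their neighbours, TFPI (43.95) stood above PLAT (30.4), and F3 (15.3) came close to F2R (13.03). Ranges of neighbours not named as overlapping were apart, which with 2 libraries per group is a weak statement. The place of F3 also rests on a short transcript, ENST00000478217.5 (472 nt, no defined coding sequence). In Doxy(+) it held 31.1% and 30.2% of F3 TPM but 7.46% and 7.36% of F3 counts. The transcript of the membrane-bound protein alone was at 9.10 and 9.06 TPM in Doxy(+). The main F2R transcript, ENST00000319211.5, was at 12.1 and 14.0 TPM there.

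**Figure D3:**
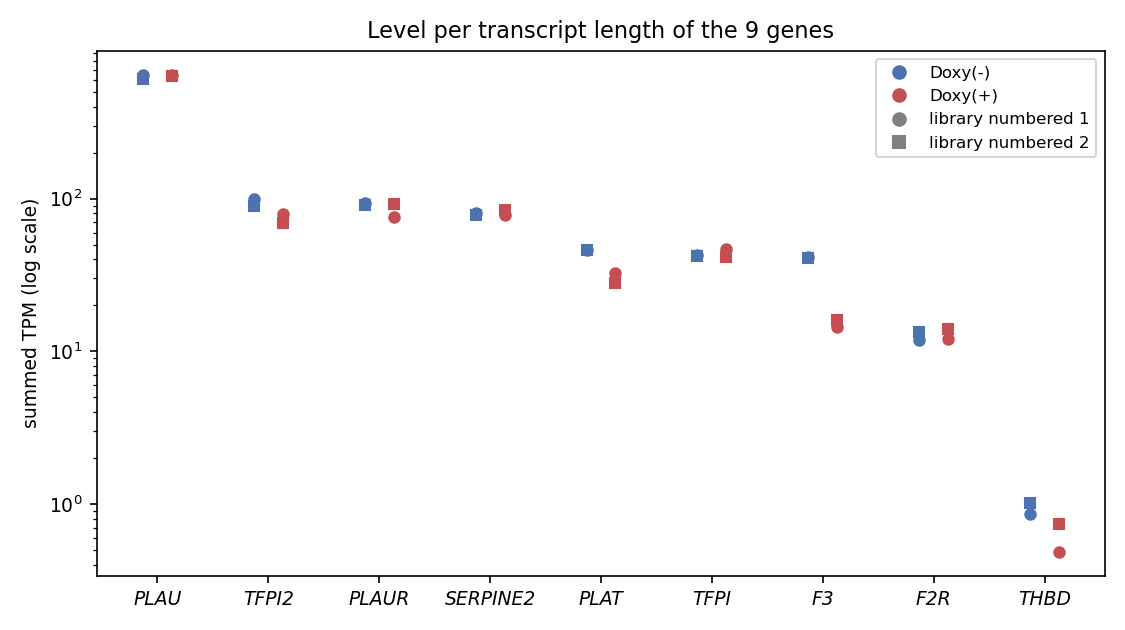
Summed TPM of the 9 genes in each library on a log scale, ordered by their mean in Doxy(-). PLAU stands above all others in every library, and F3 moves from the level of TFPI to near that of F2R.

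Pairs of genes from these linked systems can be read as ratios of TPM within a library, which do not depend on library scaling. They do depend on how reads were assigned to short transcripts. ENST00000478217.5 held 17.8% to 31.1% of F3 TPM across the libraries. ENST00000453013.5 (733 nt) held 32.0% of TFPI TPM in Doxy(-) 1 and 7.15% in Doxy(-) 2. The ratio of F3 to TFPI was 0.974 and 0.978 without doxycycline and 0.310 and 0.392 with it. That of F3 to TFPI2 was 0.416 and 0.453 without doxycycline and 0.182 and 0.233 with it. Both ratios with F3 were lower in both Doxy(+) libraries than in either Doxy(-) library. The ratio of PLAU to PLAT was 14.1 and 13.2 without doxycycline and 19.8 and 22.8 with it, and that of PLAU to PLAUR was 6.94 and 6.68 without doxycycline and 8.55 and 6.97 with it.

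**Figure D4:**
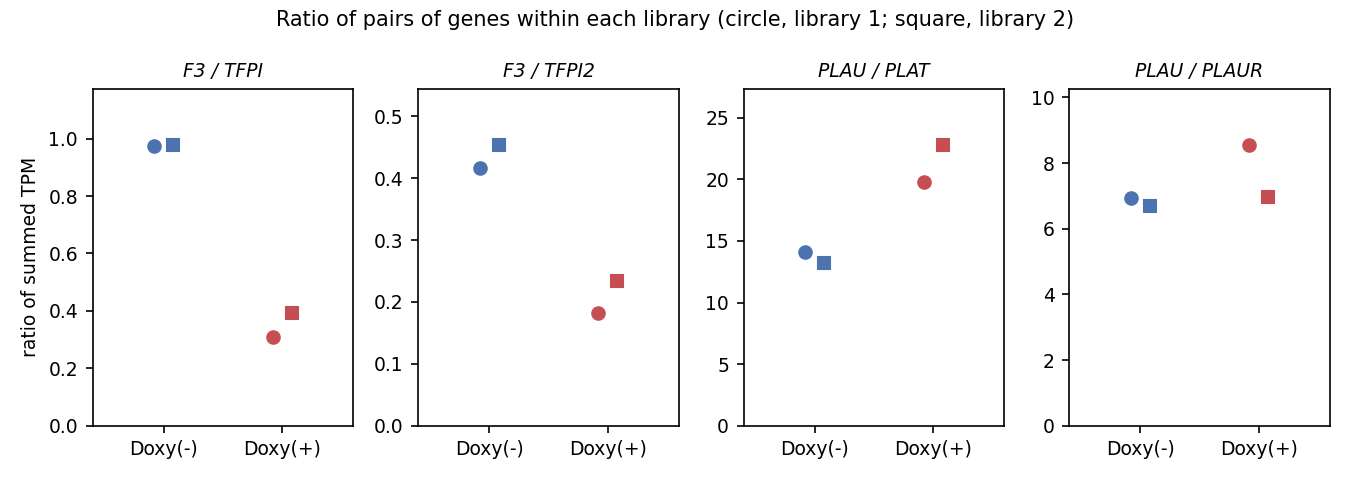
Ratios of summed TPM within each library (y axes from 0) for F3 to its inhibitors and for PLAU to PLAT and PLAUR, with 1 point per library. Both Doxy(+) libraries lie below both Doxy(-) libraries for the ratios with F3 and above them for PLAU to PLAT, and for PLAU to PLAUR the nearest libraries, at 6.94 and 6.97, almost meet.

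The other genes of the system, 52 in all, were taken from lists by role, and 28 had enough counts to be tested. These lists were chosen with earlier results of these data known, so their calls are not independent of the data. By edgeR's quasi-likelihood test with Benjamini-Hochberg adjustment over all genes, 4 of the 28 were higher and 3 lower in Doxy(+), with a median log2 fold change of 0.003. None of the 7 passed the fold change limit. Over all genes tested 9.76% were higher and 9.53% lower.

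Within the plasminogen system, 2 genes were higher and 2 lower among 7 tested of 12. ANXA2 and S100A10, whose proteins form the annexin A2 complex that docks plasminogen and tissue plasminogen activator on cells, were the lower genes of that list. ANXA2 was 1083 and 1074 CPM in Doxy(-) against 881 and 876 CPM in Doxy(+) (edgeR adjusted p 0.00109, log2 fold change -0.30 with SE 0.0259). S100A10 was 243 and 256 CPM against 172 and 185 CPM (edgeR adjusted p 0.00185, log2 fold change -0.48 with SE 0.049). ANXA2 and ENO1 have pseudogenes with which reads can be shared. The higher genes were LRP1, a receptor that clears complexes of protease and inhibitor, and the membrane protease gene HPN, which was named after its values were seen. LRP1 was 279 and 277 CPM against 347 and 325 CPM (edgeR adjusted p 0.00736, log2 fold change 0.27 with SE 0.0412). Exons of STAT6 overlap it on the opposite strand, and its call was lost in 4 of 14 alternatives, among them the fit without Doxy(+) 1 (log2 fold change 0.22). HPN was 4.58 and 3.68 CPM against 8.40 and 7.82 CPM (edgeR adjusted p 0.0166, log2 fold change 0.98 with SE 0.186). The HPN call was lost in 3 of 14 alternatives, which were DESeq2 and the fits without Doxy(+) 1 (log2 fold change 0.92) and without Doxy(+) 2 (1.03). ENO1, a glycolytic enzyme that also binds plasminogen and the most abundant of the list per length, had a log2 fold change of -0.05 (edgeR adjusted p 0.266, SE 0.027).

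Among the coagulation inhibitors, 1 of 5 tested genes was higher. PROS1, protein S, a cofactor of activated protein C and of TFPI, rose from 204 and 217 CPM to 309 and 307 CPM (edgeR adjusted p 0.000615, log2 fold change 0.55 with SE 0.0401). ANXA5, which covers phosphatidylserine, had a log2 fold change of 0.05 (edgeR adjusted p 0.274, SE 0.0292). Of the protease-activated receptors related to F2R, F2RL1 (PAR2), a receptor for tissue factor complexes and trypsin-like proteases, fell from 131 and 127 CPM to 108 and 101 CPM (edgeR adjusted p 0.00951, log2 fold change -0.31 with SE 0.0503). That call was lost in 3 of 14 alternatives, among them the fit without Doxy(+) 2 (log2 fold change -0.26). F2RL3 was at 1.16 to 2.07 CPM (edgeR adjusted p 0.825, log2 fold change 0.15 with SE 0.378), and F2RL2, named as the remaining receptor of the family and too low to be tested, had estimated counts of 2.64 to 4.28.

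Genes tied to the activity of tissue factor on the membrane gave 1 higher gene of 6 tested. This was SMPD1, lysosomal acid sphingomyelinase, at 6.02 and 6.67 CPM in Doxy(-) and 11.3 and 12.7 CPM in Doxy(+) (edgeR adjusted p 0.00768, log2 fold change 0.92 with SE 0.141). The call of SMPD1 was lost in 1 of 14 alternatives, limma on log2(TPM + 1), with a log2 fold change of 0.70. The disulfide isomerases P4HB (edgeR adjusted p 0.671, log2 fold change -0.03 with SE 0.0394) and PDIA3 (0.07, SE 0.0875, edgeR adjusted p 0.639) were not called.

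Of the 8 coagulation factor genes tested, 0 were called by edgeR, 4 had an unadjusted p under 0.05 (33.4% of all genes tested had one), and 0 were called by DESeq2 or limma. VKORC1, which recycles vitamin K, had a log2 fold change of -0.02 (edgeR adjusted p 0.867, SE 0.0539) and MCFD2, which helps export factors V and VIII, of 0.12 (edgeR adjusted p 0.0789, SE 0.0384). Transcripts of factor VII, factor X and plasminogen were hardly detected and those of prothrombin (F2) were few. These genes are named after their values were seen. F7 had 0 counts in all 4 libraries, which allows up to 0.204 to 0.233 CPM (counting error only), F10 had 0 or 1 counts, F2 had between 6 and 16, and plasminogen (PLG) had 1 or 2.

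**Figure D5:**
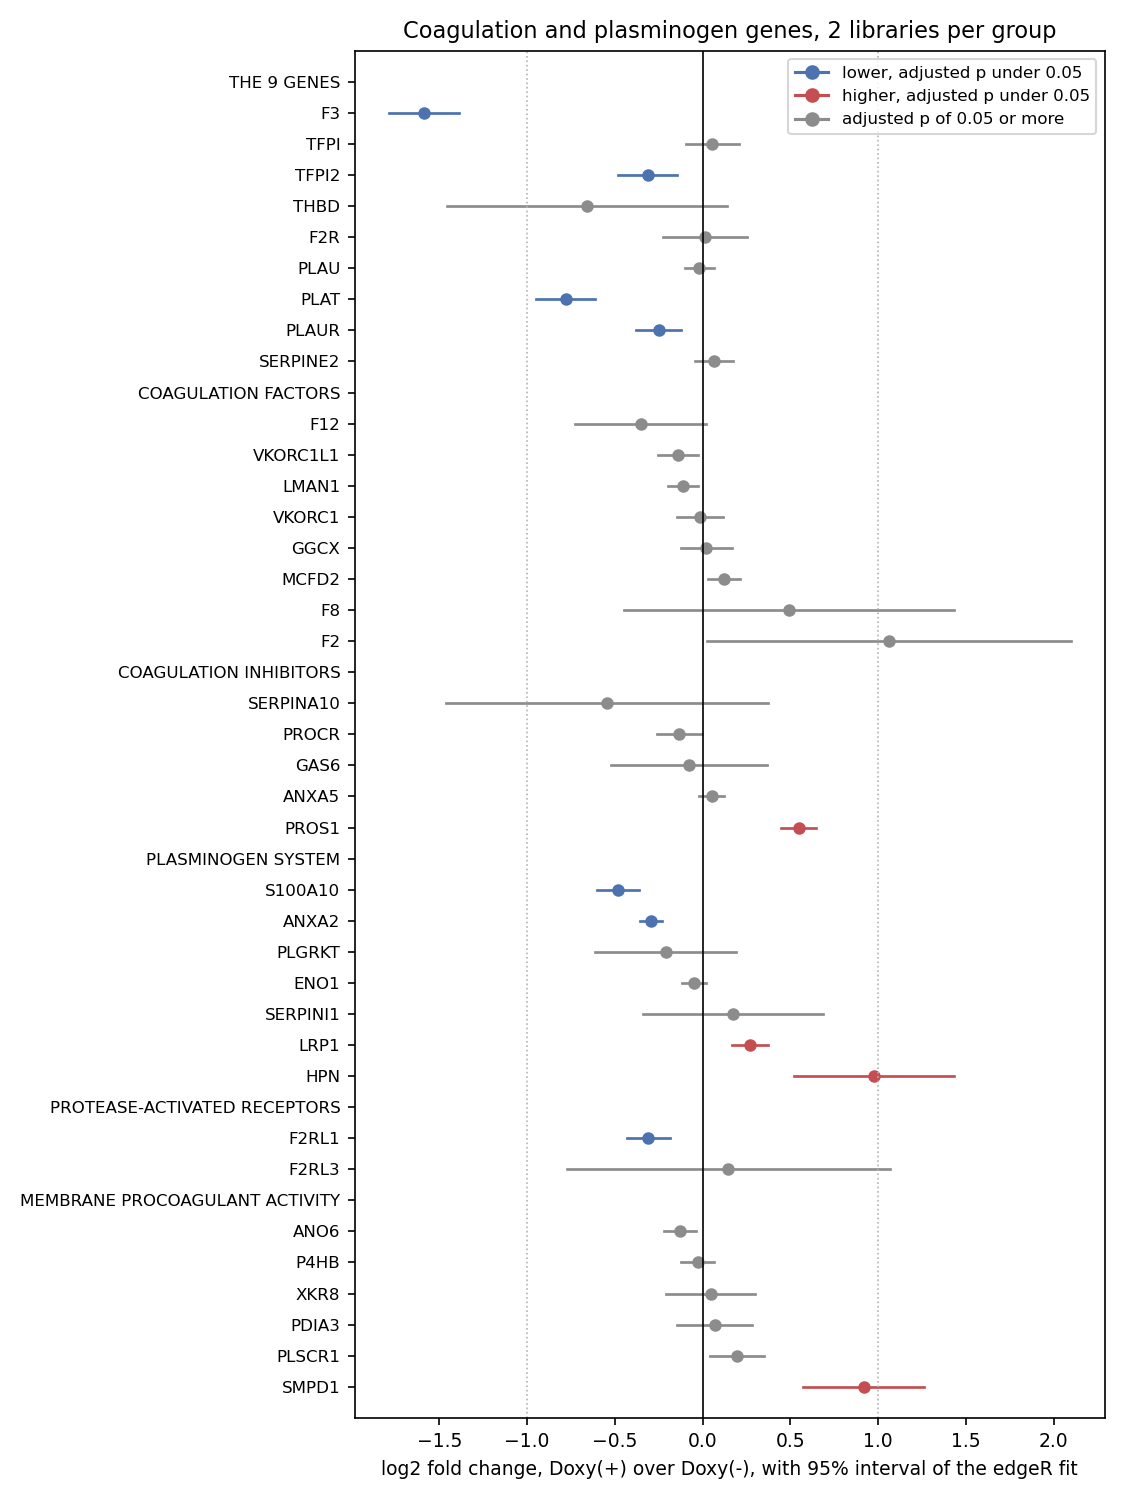
Log2 fold change of Doxy(+) over Doxy(-) with its 95% interval from the edgeR fit, for the 9 genes and the 28 tested genes of the wider lists, grouped by role. F3 is the only gene plotted whose whole interval lies below -1.

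Finally, the genes whose pattern over the 4 libraries was nearest to that of F3 were sought among 9608 genes whose CPM averaged 10 or more, by the distance between log2 CPM deviations from each gene's own mean. SLCO2A1 was the nearest at a distance of 0.067, followed by VCAM1 at 0.160 and CXCL8 at 0.184. SLCO2A1, a prostaglandin transporter gene, measured 39.1 and 37.5 CPM in Doxy(-) against 12.7 and 13.6 CPM in Doxy(+). VCAM1, an adhesion molecule for leukocytes, was at 19.5 and 19.6 CPM against 6.52 and 7.60 CPM. CXCL8, a chemokine for neutrophils, was at 1039.7 and 1029.6 CPM against 382 CPM in each Doxy(+) library. With 4 libraries in 2 groups, such nearness says little more than that the fold changes were alike.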

How the data were processed

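Polyadenylated RNA of 2 Doxy(-) and 2 Doxy(+) cultures was sequenced. The submitters' processing notes name Trim Galore 0.6.6, cutadapt 2.5, STAR 2.7.9a and hg38, and the study's methods also RSEM, while the files deposited by the authors have the column layout of kallisto. The deposited estimated counts are not normalized, and the deposited TPM values were scaled by effective transcript length. The methods name a UCSC hg38 annotation, while the files list Ensembl identifiers, and the release and the use of strand in counting are not given in the sources used here. Of 180253 transcript identifiers, 150691 (83.6%) matched GENCODE release 44. The unmatched ones held 9.66% to 9.89% of each library and were left out. Counts were summed per gene, rounded, and fitted in R 4.3.3 by edgeR 4.0.16 (glmQLFit, TMM, filterByExpr, group as the only term, Benjamini-Hochberg adjustment), a procedure checked on simulated counts. Intervals are 95%. Replicates differed beyond counting noise (chi-square per degree of freedom 4.03 and 2.91). DESeq2 1.42.0 and limma 3.58.1 were among the alternatives. The members and the lists were chosen with earlier results of these data known. A result for 1 gene of the lists is not reported here. Besides the members and TFE3, the genes named were, per list, up to 4 called genes with the smallest p and the 2 of highest mean TPM, and the 3 nearest to F3. HPN, F2RL2, F7, F10, F2 and PLG fall outside this rule and were named after their values were seen. Printed CPM were computed from unrounded sums on TMM-scaled library sizes. Alternatives were RLE scaling, low-count filters, unmatched copies, length-scaled counts, the replicate block, limits and each library left out.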

Additional observations from a re-analysis of the deposited data

How the results depend on the processing

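Of the 9 members, 4 were called lower. This became 2 with length-scaled counts, limma on log2(TPM + 1) or log2(TPM + 0.1), DESeq2 or an adjusted p under 0.01, 1 with the fold change limit, and 2 to 4 when 1 library was left out (2 without Doxy(+) 2). TFPI2 and PLAUR each lost the call in 6 of 14 alternatives. The cause was not tested. In the wider lists the 4 higher genes became 2 with limma on log2(TPM + 1), 2 to 4 when a library was left out (2 without Doxy(+) 1) and 0 with the fold change limit. The 3 lower genes became 0 with that limit and 2 to 4 when a library was left out. Over all genes, 1293 lower and 1325 higher became 779 and 776 with DESeq2, 583 and 677 with length-scaled counts, 306 and 598 with limma on log2(TPM + 1), 299 and 590 on log2(TPM + 0.1), and 565 to 1308 and 647 to 1233 when a library was left out.

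Signs turned for genes near 0. The log2 fold change of PLAU became 0.0289 under both limma settings and that of VKORC1 0.0355 with a pseudocount of 1 and 0.0357 with 0.1. When a library was left out it ranged from -0.0125 to 0.12 for TFPI, -0.0584 to 0.0147 for PLAU, -0.10 to 0.12 for F2R, -0.0613 to 0.0264 for VKORC1, -0.19 to 0.62 for F2RL3, -0.0799 to 0.0199 for P4HB and -0.0585 to 0.21 for PDIA3. THBD (17 to 42 counts) and F2 (6 to 16 counts) rest on few counts.

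The replicate numbers are shared between groups, but the sources do not say what they mark. With the replicate number as a block, 4 members were lower and 0 higher, 3 genes of the wider lists were lower and 4 higher, and no call changed among the members, TFE3 and the genes named from the wider lists by the rule. Same-numbered libraries deviated in opposite directions (correlation -0.222), and with the crossed block, chosen after seeing the data, the counts were again 4, 0, 3 and 4.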
